A study of Homo sapiens with 12 samples.

Results

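The step from 0.3 to 3 µM ZSTK474, an inhibitor of the class I PI3K isoforms, was examined in 4 human synovial sarcoma (SS) cell lines, as the difference between the 4 arrays at 3 µM and the 4 arrays at 0.3 µM. The members were chosen by the dose labels, so 8 of the 12 arrays of the series entered the difference, paired by cell line, and all genes measured were included. Aska-SS and Yamato-SS carry the fusion gene SS18-SSX1, and SYO-1 and Fuji carry SS18-SSX2. The tumour arises in soft tissue, and such a fusion protein drives it. All cells were grown in medium with fetal bovine serum, and every group was sampled at 24 h: 4 cultures given vehicle (0 µM), 4 at 0.3 µM and 4 at 3 µM. Each line gave 1 array at each dose, so the lines served as the replicates (n = 4), each line is a single established culture, and the spread between repeated cultures of a line was not measured. The question is which transcripts changed further when the dose was raised from the lower to the higher level.

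PI3K makes the lipid signal that activates Akt, and Akt holds FOXO transcription factors out of the nucleus while it drives mTORC1, the kinase complex that supports protein, lipid and nucleotide synthesis. When PI3K is blocked, FOXO factors can enter the nucleus and raise genes such as those for growth factor receptors and cell cycle inhibitors, and the entry of cells into S phase, which depends on E2F factors, is commonly slowed. Genes of replication carry E2F sites near their starts, whereas genes of mitosis are known for another element, the CHR (cell cycle genes homology region).

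Values are log2 signals after quantile normalization, with dim signals raised to a floor of 3.60, so a value at the floor is an upper limit and a change that ends or starts there is a lower limit. A step is the log2 signal at 3 µM minus that at 0.3 µM, an SE is its standard error in the fit, and an adjusted p comes from limma, blocked on cell line, by the Benjamini-Hochberg method over 12133 genes with a threshold of 0.05. Where 4 values or pairs of values follow each other without names, they are those of Aska-SS, Yamato-SS, SYO-1 and Fuji in this order, and pairs run from 0.3 to 3 µM. In RNA of a whole culture, fewer cells of a kind and less RNA per cell cannot be told apart. Of the SS markers, 14 of 14 that the annotation names lay above the filter for dim probe sets, *TLE1* among them at 12.83 to 14.56. Of the leukocyte markers 0 of 10 did, of the epithelial 3 of 11 and of the endothelial 3 of 10, and the summed linear signal of the SS markers ranged over 99330 to 104900 at the lower dose and 101600 to 112300 at the higher. Before normalization the median signal of an array lay between 63.6 and 77.7 at the lower dose and between 71.0 and 85.3 at the higher. The 3' to 5' signal ratio of the actin control, a measure of RNA quality, rose on the log2 scale by 0.0992 in Aska-SS, 0.178 in Yamato-SS, 0.0611 in SYO-1 and 0.365 in Fuji between the doses, and that of GAPDH changed by -0.0426 to 0.0251.

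In the step 880 genes rose, which is 7.25% of the genes tested, and 982 fell, which is 8.09%. The median size was 0.48 among the genes that rose and 0.50 among those that fell, and only 40 of the former and 72 of the latter changed by more than 2-fold. The direction was shared by 4 of 4 lines for 868 of the genes that rose and for 966 of those that fell, beside 20.4% of all genes that were higher and 19.1% that were lower at 3 µM in 4 of 4 lines with no test applied. The change from 0 to 0.3 µM, which shares the 0.3 µM arrays with the step, passed for 554 genes that rose (4.57%) and 407 that fell (3.35%). Without Aska-SS only 1 gene rose and 0 fell in that lower interval, and without Fuji 56 rose and 25 fell. Every count given for it here therefore depends on single lines. At an unadjusted p under 0.05 by limma the lower interval held 2298 genes without Aska-SS, 2282 without Fuji and 3204 with all lines. The counts of the step depend on the pairing and on single lines as well. Without the block for cell line no gene passed in the step (620 at an unadjusted p under 0.05). Without SYO-1 246 rose and 347 fell, without Aska-SS 315 and 394, and without Yamato-SS 473 and 603. Of 165 genes named here that passed, 79 passed in all 4 fits that left out a line, 16 in 3 and 70 in fewer.

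The size of the step was similar in the lines. Its SD over all genes was 0.45 in Aska-SS, 0.51 in Yamato-SS, 0.48 in SYO-1 and 0.50 in Fuji. Genes more than 1 higher on the log2 scale numbered 184, 319, 281 and 256 in Aska-SS, Yamato-SS, SYO-1 and Fuji, and those more than 1 lower 238, 345, 252 and 330. Across genes, which are not independent replicates, the steps of a pair of lines correlated with r = 0.303 to 0.39.

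A further contrast, added after the data were seen, asked whether the step differs from the change between 0 and 0.3 µM. No gene passed in either direction (0% with a more positive and 0% with a more negative step, smallest adjusted p 0.12 by limma, and 625 genes at an unadjusted p under 0.05), so for no single gene was the response to the higher dose shown to depart in size from that to the lower. The step was also compared between the fusion types. Again 0 genes passed (261 at an unadjusted p under 0.05, smallest adjusted p 0.143 by limma), with 2 lines on each side.

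**Figure D1:**
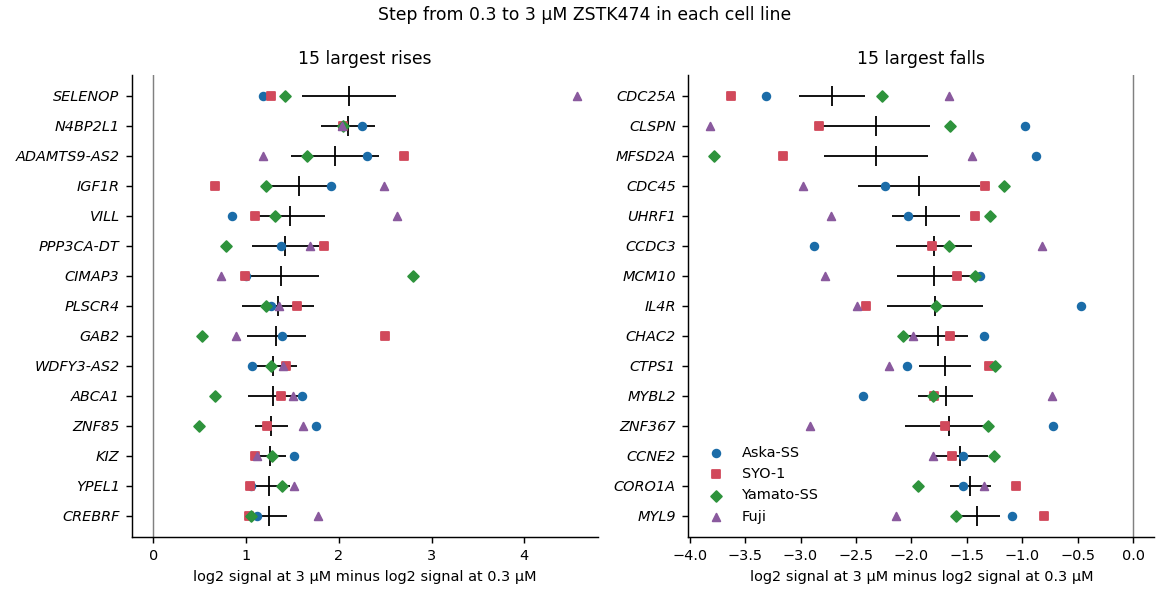
Step from 0.3 to 3 µM of the 15 largest rises (left) and the 15 largest falls (right), on the log2 scale; coloured symbols are the 4 cell lines, the black tick is the fitted step and the black line its SE. The 30 genes were picked among those that passed with 4 of 4 lines on the same side of 0. The lines differ most for *SELENOP*, where Fuji reached 4.57.

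Promoter sequences are shown for genes with large steps because they let E2F and FOXO motifs be read beside the changes. They are the 120 bases before the gene start, 5' to 3' on the gene's strand, from RefSeq on GRCh38.p14, and the motif is in capitals. The E2F motif was searched as TTTCCCGC or TTTGGCGC and the FOXO motif as GTAAACA, on both strands, in the 250 bases before the start. Among 36 genes that are one of the 15 largest falls or a DNA replication gene that fell, 29 have an entry, and 9 of these hold an E2F motif. For 7 of them it lies within 120 bases.
CDC25A: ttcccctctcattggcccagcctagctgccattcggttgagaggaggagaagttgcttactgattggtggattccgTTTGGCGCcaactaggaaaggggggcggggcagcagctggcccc
UHRF1: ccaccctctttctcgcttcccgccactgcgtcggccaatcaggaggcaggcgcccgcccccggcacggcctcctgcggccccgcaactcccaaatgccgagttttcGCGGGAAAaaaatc
ZNF367: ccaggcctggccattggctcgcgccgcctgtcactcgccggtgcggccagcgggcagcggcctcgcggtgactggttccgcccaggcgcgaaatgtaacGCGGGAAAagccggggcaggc
GINS2: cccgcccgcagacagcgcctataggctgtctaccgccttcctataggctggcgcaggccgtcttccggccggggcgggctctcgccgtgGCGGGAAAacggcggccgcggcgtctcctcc
PCNA: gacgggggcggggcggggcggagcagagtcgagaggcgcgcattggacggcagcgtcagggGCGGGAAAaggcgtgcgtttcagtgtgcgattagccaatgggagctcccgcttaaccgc
MCM6: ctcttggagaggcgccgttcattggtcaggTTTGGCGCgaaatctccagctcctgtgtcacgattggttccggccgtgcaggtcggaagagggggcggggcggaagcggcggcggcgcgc
RFC3: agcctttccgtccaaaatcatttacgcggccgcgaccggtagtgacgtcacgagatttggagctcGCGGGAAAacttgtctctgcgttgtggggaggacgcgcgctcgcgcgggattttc
In order, these stretches lie at chr3:48188418-48188537 (minus strand), chr19:4909381-4909500 (plus strand), chr9:96418371-96418490 (minus strand), chr16:85688955-85689074 (minus strand), chr20:5126623-5126742 (minus strand), chr2:135876444-135876563 (minus strand) and chr13:33818029-33818148 (plus strand).

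Among 24 genes that are one of the 15 largest rises or a FOXO list gene that rose, 22 have an entry and 3 hold the FOXO motif: *SELENOP*, *ADAMTS9-AS2* and *BCL2L11*. It lies within 120 bases of the start for these 2.
SELENOP: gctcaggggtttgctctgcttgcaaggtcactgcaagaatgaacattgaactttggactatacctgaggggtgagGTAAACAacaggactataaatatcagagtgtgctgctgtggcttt
ADAMTS9-AS2: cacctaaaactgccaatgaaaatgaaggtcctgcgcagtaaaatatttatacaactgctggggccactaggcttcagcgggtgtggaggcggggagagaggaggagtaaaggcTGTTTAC
They lie at chr5:42811893-42812012 (minus strand) and chr3:64684750-64684869 (plus strand). In *SELENOP* the motif starts 45 bases before the gene start, and in *CDC25A* the E2F motif starts 44 bases before it.

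Over all genes tested that have an entry (9897), the E2F motif was found in 3.13% of promoters, against 5.94% of 842 genes that fell, 3.36% of 745 that rose and 25% of 44 DNA replication genes. The FOXO motif was in 1.84% of all, 3.22% of the genes that rose and 1.54% of those that fell. The CHR letters TTTGAA were in 55.3% of 47 mitotic genes, in 0 of 44 DNA replication genes and in 8.3% of all. CCAAT was in 88.2% of 17 sterol genes, 72.3% of the mitotic genes and 54.5% of the DNA replication genes. It was also in 44.1% of the genes that fell, 32.3% of those that rose and 35.3% of all. A sterol element, TCACNCCAC, was in 5.88% of the sterol genes and 0.818% of all, and the E-box CACGTG was in 13% of the genes that rose, 8.67% of those that fell and 9.26% of all. Overlaps between motifs were not removed. A match is a description of letters and not of binding.

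The 15 largest rises included a growth factor receptor and an adaptor of PI3K signalling. *SELENOP*, which encodes the secreted selenium carrier selenoprotein P, rose from 10.42 to 11.61 in Aska-SS, from the floor of 3.60 to 5.02 in Yamato-SS, from 8.502 to 9.77 in SYO-1 and from the floor to 8.17 in Fuji. Its fitted step was 2.11 (SE 0.51, adjusted p = 0.0176, limma), the 0.3 and 3 µM arrays overlap, and the steps of Yamato-SS and Fuji are lower limits. *N4BP2L1* was the most even of the large rises, with steps of 2.25, 2.05, 2.04 and 2.04 in Aska-SS, Yamato-SS, SYO-1 and Fuji. It went from 8.004 to 10.26, from 5.50 to 7.54, from 7.39 to 9.43 and from 9.39 to 11.43, and its fitted step of 2.09 (SE 0.29, adjusted p = 0.002) stood beside 2.03 between 0 and 0.3 µM (adjusted p = 0.00849). The levels overlap between doses.

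*IGF1R*, the receptor for insulin-like growth factors, rose from 4.29 to 6.20 in Aska-SS, from 7.10 to 8.31 in Yamato-SS, from 10.54 to 11.20 in SYO-1 and from 6.55 to 9.03 in Fuji. The levels of the lines overlap between doses, and the step was higher in 4 of 4 lines at 1.57 (SE 0.38, adjusted p = 0.0186). *GAB2*, an adaptor that links receptors to PI3K, rose by 1.32 (SE 0.32, adjusted p = 0.018), with 2.50 in SYO-1 and 0.52 in Yamato-SS. It was at -0.79 between 0 and 0.3 µM, where it did not pass (adjusted p = 0.137). *ABCA1*, which exports cholesterol from cells, rose by 1.29 (adjusted p = 0.00983).

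Further large rises were *WDFY3-AS2* (1.29), *KIZ* (1.25), *YPEL1* (1.25) and *CREBRF* (1.24), which passed in every fit that left out a line. *ZNF85*, a zinc finger gene, rose by 1.27, but its other probe set gave -0.11. *VILL* (1.47), *PPP3CA-DT* (1.42), *CIMAP3* (1.38), *PLSCR4* (1.35) and the antisense RNA *ADAMTS9-AS2* (1.96) complete the 15. *ADAMTS9-AS2* was at the floor at 0.3 µM in Aska-SS and SYO-1, and *CIMAP3* in Yamato-SS.

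The largest falls were led by genes of the G1 to S transition and of DNA replication. *CDC25A*, the phosphatase that activates CDK2, fell from 7.62 to 4.31 in Aska-SS, from 9.25 to 6.98 in Yamato-SS, from 7.96 to 4.33 in SYO-1 and from 7.43 to 5.77 in Fuji. All 4 arrays at 3 µM lay below all 4 at 0.3 µM, and the step was -2.72 (SE 0.30, adjusted p = 0.000992). Of its 3 probe sets 1 gave 0.16. *CLSPN*, which encodes the checkpoint adaptor claspin, changed by -2.32 (SE 0.48, adjusted p = 0.00957), from -0.97 in Aska-SS to -3.82 in Fuji, where it ended at the floor. *CDC45*, a subunit of the replicative helicase, changed by -1.93 (adjusted p = 0.0351) and also reached the floor in Fuji. *MCM10*, which helps to start replication forks, changed by -1.79 (SE 0.34, adjusted p = 0.00654), from -1.39 in Aska-SS to -2.78 in Fuji.

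*UHRF1*, which maintains DNA methylation after replication, went from 10.85 to 8.82, from 12.46 to 11.17, from 12.56 to 11.14 and from 11.05 to 8.32 in Aska-SS, Yamato-SS, SYO-1 and Fuji, a step of -1.87 (SE 0.31, adjusted p = 0.00383). It was lower in 4 of 4 lines, and the ranges at the doses overlap. *CTPS1*, which makes CTP, changed by -1.70 (SE 0.23, adjusted p = 0.00195), *MYBL2*, a transcription factor of the cell cycle, by -1.69 (adjusted p = 0.0024), and *CCNE2*, cyclin E2, by -1.56 (adjusted p = 0.0034). *CHAC2*, an enzyme of glutathione breakdown, changed by -1.76 (SE 0.27, adjusted p = 0.00313) and *ZNF367* by -1.66.

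Other large falls were outside the cell cycle. *MFSD2A*, a transporter of lysophospholipids, changed by -2.32 (SE 0.47, adjusted p = 0.00861), with -3.78 in Yamato-SS and -0.87 in Aska-SS. *CORO1A*, an actin-binding protein, changed by -1.47 (SE 0.18, adjusted p = 0.00153) and *MYL9*, a myosin light chain, by -1.41 (adjusted p = 0.00238), although another probe set of *MYL9* gave -0.20. *CCDC3* changed by -1.80 and *IL4R*, the interleukin 4 receptor, by -1.79. *IL4R* ended at the floor of 3.60 in Fuji, so its fall there is a lower limit. In the lower interval *MYL9* was at -0.13, *CCDC3* at 0.36 and *IL4R* at 0.28, and none of the 3 passed there.

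Of these 30 genes 16 passed in each of the 4 fits that left out a line. The direction could not turn in these fits, since the genes were picked with 4 of 4 lines alike. Leaving out a line ended the call of 9 rises and 5 falls, with adjusted p from 0.0527 to 0.139. *SELENOP*, *GAB2* and *ABCA1* were lost without Aska-SS (0.0631, 0.0786 and 0.0818) and without SYO-1 (0.0641, 0.065 and 0.0544). *ADAMTS9-AS2* was lost without Aska-SS (0.0867) and Yamato-SS (0.0527). *IGF1R*, *VILL* and *PLSCR4* were lost without Aska-SS (0.0601, 0.0535 and 0.128), SYO-1 (0.0581, 0.0854 and 0.134) and Yamato-SS (0.0563, 0.0764 and 0.0671). *PPP3CA-DT* and *CIMAP3* were lost without Aska-SS (0.0831 and 0.111), SYO-1 (0.0705 and 0.118) and Fuji (0.0549 and 0.0615). *CLSPN*, *MFSD2A* and *ZNF367* were lost without SYO-1 (0.0738, 0.0723 and 0.0913), *CDC45* without Aska-SS (0.139) and SYO-1 (0.082), and *IL4R* without SYO-1 (0.107) and Yamato-SS (0.0578).

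**Figure D2:**
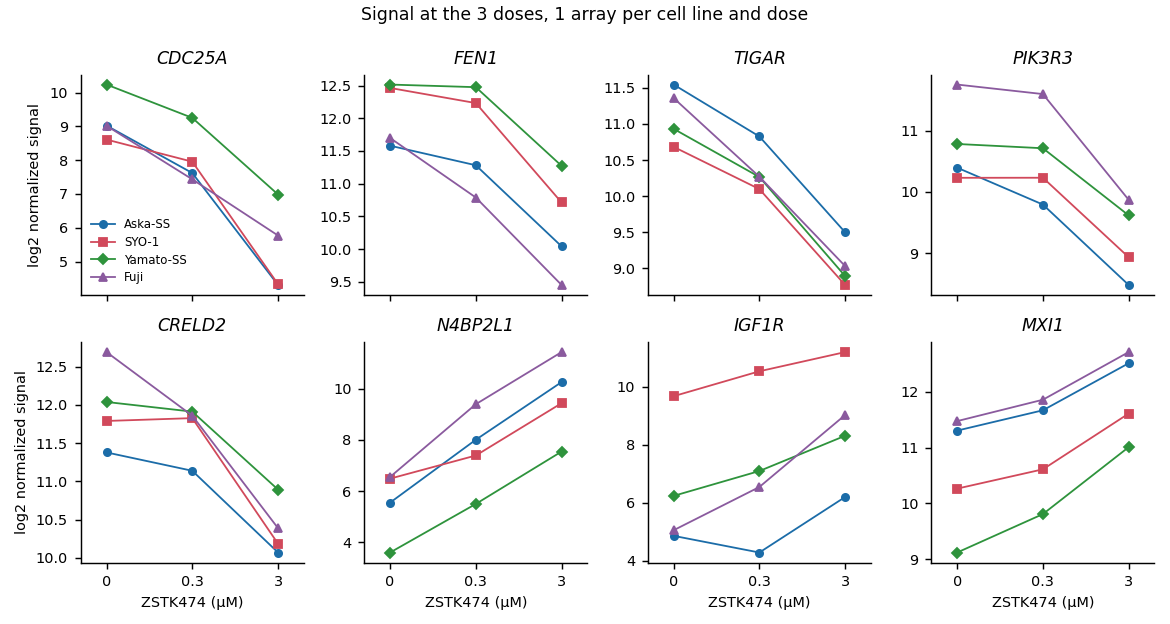
Log2 normalized signal of 8 genes (vertical axes) at 0, 0.3 and 3 µM ZSTK474 (horizontal axis, equally spaced), with 1 line per cell line and 1 array per point. *FEN1*, *PIK3R3* and *CRELD2* moved by -1.32, -1.36 and -1.30 between 0.3 and 3 µM and by -0.37, -0.21 and -0.29 before it.

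Genes of the pathway itself were next compared by their roles. Of 27 PI3K, Akt and mTOR components 1 rose and 5 fell (3.7% and 18.5%, against 7.25% and 8.09% of all genes), and the median step was -0.01. *PIK3R3*, a regulatory subunit of PI3K, had among the smallest adjusted p of the step. It fell from 9.79 to 8.48 in Aska-SS, from 10.72 to 9.62 in Yamato-SS, from 10.23 to 8.93 in SYO-1 and from 11.60 to 9.87 in Fuji. The step was -1.36 (SE 0.14, adjusted p = 0.000908), against -0.21 between 0 and 0.3 µM (adjusted p = 0.367), and the difference between these intervals did not pass. Only the highest array at 3 µM, of Fuji, reached the range at 0.3 µM. *EIF4EBP1*, the translation repressor that mTORC1 phosphorylates, changed by -0.79 (SE 0.14, adjusted p = 0.00555) and *MAPKAP1*, a subunit of mTORC2, by -0.70 (adjusted p = 0.00654, and 0.0595 without SYO-1). *PHLPP2*, a phosphatase of Akt, changed by -0.40 (adjusted p = 0.0171). It passed in 0 of the 4 fits without a line. *RICTOR*, another mTORC2 subunit, rose by 0.41 (adjusted p = 0.0362, and 0.0967 without Yamato-SS, 0.151 without SYO-1 and 0.0907 without Fuji).

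Of 24 tested FOXO targets and genes of PI3K feedback 10 rose, 0 fell and 14 did not pass (41.7% rose against 7.25% of all genes), with a median step of 0.56 against 0.01 over all genes, and 10 had risen between 0 and 0.3 µM (against 4.57% of all genes) with a median of 0.54. The median step was positive in each line, at 0.40, 0.67, 0.46 and 0.66 in the same order. *BCL6*, a repressor that FOXO factors induce, went from 10.30 to 11.17, from 9.87 to 11.21, from 9.70 to 10.79 and from 10.49 to 11.81 in Aska-SS, Yamato-SS, SYO-1 and Fuji. All 4 arrays at 3 µM lay above all 4 at 0.3 µM (step 1.15, SE 0.18, adjusted p = 0.00324). *CDKN1B*, which encodes the CDK inhibitor p27, rose by 0.58 (SE 0.09, adjusted p = 0.00285) and *KLHL24* by 1.24 (SE 0.27, adjusted p = 0.011). *FOXO3* itself rose by 0.69 (SE 0.15, adjusted p = 0.0126, and 0.0738 without SYO-1). *IRS2*, the insulin receptor substrate (1.04), *CCNG2* (0.74) and *KLF6* (0.47) passed as well and were chosen for naming with their values known. *TXNIP*, a regulator of glucose uptake, was at 1.41 but did not pass (adjusted p = 0.0576), with 3.41 in Yamato-SS and 0.41 in Aska-SS, nor did it pass in any of the fits without a line. *FOXO1* did not pass (0.54, adjusted p = 0.103). The number that rose fell to 3 when SYO-1 was left out and was 6 without Fuji.

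Of 16 tested genes of the BCL-2 family, which set the threshold for apoptosis, 1 rose (6.25% against 7.25% of all genes) and 0 fell, with a median step of 0.09. *BCL2L11*, which encodes the BH3-only protein BIM, rose from 9.53 to 9.78 in Aska-SS, from 8.88 to 9.76 in Yamato-SS, from 10.10 to 10.62 in SYO-1 and from 10.25 to 10.91 in Fuji, a step of 0.58 (SE 0.15, adjusted p = 0.0244) after 0.55 between 0 and 0.3 µM (adjusted p = 0.0449). It was higher in 4 of 4 lines, with overlapping ranges. Its 7 probe sets ranged from -0.25 to 0.83, and with their mean it did not pass (0.33, adjusted p = 0.175). It was also lost without SYO-1 (0.0946), Yamato-SS (0.0611) and Fuji (0.0796). *BBC3*, which encodes PUMA, went from 7.92 to 8.60, from 7.40 to 8.02, from 8.19 to 8.77 and from 8.57 to 8.35, and so was higher in 3 lines and lower in Fuji (step 0.41, SE 0.17, adjusted p = 0.13). *BBC3* passed only where Fuji was left out. *PMAIP1*, which encodes NOXA, was at -0.52 (adjusted p = 0.111), after a fall of -1.30 between 0 and 0.3 µM (adjusted p = 0.0104). *BMF*, which had risen by 1.61 at 0.3 µM (adjusted p = 0.0185), was at 0.34 in the step (adjusted p = 0.53).

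The other named members did not pass. *BCL2* was at -0.10, *BCL2L1* at -0.09, *MCL1* at -0.05, *BCL2L2* at 0.30, *BAX* at -0.08, *BAK1* at -0.38, *BID* at -0.27, *BAD* at 0.18, *HRK* at 0.25, *BOK* at 0.01, *BNIP3* at 0.32 and *BNIP3L* at 0.27, with adjusted p of 0.083 to 0.976. Of 21 tested caspases, apoptosome genes, inhibitors and death receptors 1 rose and 4 fell (4.76% and 19%, against 7.25% and 8.09% of all genes). The falls were *CYCS*, cytochrome c (-0.99, SE 0.18, adjusted p = 0.00555), *AIFM1* (-0.67, adjusted p = 0.00225), *FADD* (-0.49) and *ENDOG* (-0.54). *CYCS* and *AIFM1* also serve respiration, and *BIRC2* rose by 0.22 (adjusted p = 0.0396), which passed in 0 of the 4 fits without a line. *FADD* and *ENDOG* did not pass without Aska-SS or without SYO-1.

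The gene with the smallest adjusted p of all in the step was *TIGAR*, which encodes a phosphatase that lowers fructose 2,6-bisphosphate. It went from 10.83 to 9.50, from 10.27 to 8.89, from 10.10 to 8.77 and from 10.27 to 9.03 in Aska-SS, Yamato-SS, SYO-1 and Fuji. Every line fell by 1.24 to 1.37, the ranges at the doses do not overlap, and the step was -1.32 (SE 0.10, adjusted p = 0.00028) after -0.77 between 0 and 0.3 µM (adjusted p = 0.00678). It stands in the list of p53 targets, of which 3 of 24 rose and 2 fell (12.5% and 8.33%, against 7.25% and 8.09% of all genes).

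Of 51 tested genes of DNA replication 24 fell, 3 rose and 24 did not pass (47.1% and 5.88%, against 8.09% and 7.25% of all genes), with a median step of -0.46. Between 0 and 0.3 µM 16 fell (31.4% against 3.35% of all genes), with a median of -0.45. *FEN1*, the flap endonuclease, went from 11.28 to 10.04, from 12.47 to 11.27, from 12.23 to 10.71 and from 10.79 to 9.45, a step of -1.32 (SE 0.14, adjusted p = 0.000908). The 3 µM array was the lower in 4 of 4 lines, and the ranges overlap. *GINS2*, of the helicase complex, changed by -1.26 (SE 0.16, adjusted p = 0.00153), *GINS1* by -0.99 (adjusted p = 0.00298) and the sliding clamp *PCNA* by -0.53 (adjusted p = 0.0024). Of the members that rose, *CDT1*, which licenses origins, was at 0.68 (adjusted p = 0.00845, and 0.0737 without SYO-1) and had stood at -0.12 at 0.3 µM. *ORC3* and *RFC1* both rose by 0.33, and neither passed in any of the fits without a line. The count that fell was 8 without SYO-1 and 15 without Aska-SS.

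Of 28 tested G1 cyclins, CDKs, inhibitors and E2F genes 9 fell and 1 rose (32.1% and 3.57%, against 8.09% and 7.25% of all genes), and 18 did not pass. The count that fell was 6 both without Aska-SS and without SYO-1. The member that rose was the inhibitor *CDKN1B*. *CCNE1*, cyclin E1, changed by -1.15 (SE 0.13, adjusted p = 0.000992) and *TFDP1*, the partner of E2F factors, by -0.52 (adjusted p = 0.00257). Among 24 tested genes of the DNA damage response, 29.2% fell and 4.17% rose, and the 7 falls became 2 without Aska-SS, 2 without Yamato-SS and 1 without SYO-1. They were led by the exonuclease *EXO1* at -1.12 (SE 0.18, adjusted p = 0.00353).

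Few mitotic genes passed in the step, and their medians differed from line to line. Of 56 tested members 2 fell and 0 rose (3.57% against 8.09%), *CENPM* (-0.86, adjusted p = 0.0352) and *SPC25* (-0.81, adjusted p = 0.0371), and the median step was -0.22. The median step was -0.30 in SYO-1 and -0.39 in Yamato-SS, -0.08 in Aska-SS and 0.01 in Fuji. In the lower interval, which shares the 0.3 µM arrays, the median change was -1.61 in Fuji, -0.41 in Aska-SS, -0.18 in SYO-1 and -0.10 in Yamato-SS. The median for DNA replication in the lower interval was -0.89 in Fuji, -0.59 in Aska-SS, -0.15 in SYO-1 and -0.11 in Yamato-SS, and its median step in the same order was -0.35, -0.33, -0.62 and -0.54. Each of these medians comes from 1 array per dose and has no test. With Fuji left out, 15 mitotic genes fell in the step, and without any of the other lines 0 did, so the count rests on which lines enter.

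**Figure D3:**
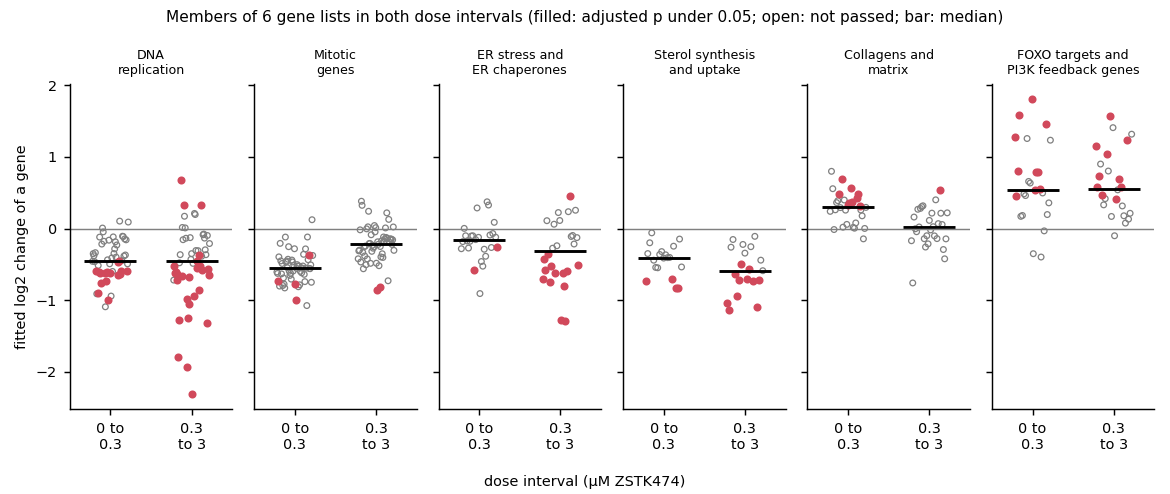
Fitted log2 change (vertical axis) of the tested members of 6 gene lists between 0 and 0.3 µM and between 0.3 and 3 µM; each point is a gene, filled where its adjusted p was under 0.05, and the bar is the median. Mitotic genes had a median of -0.55 in the lower interval and -0.22 in the step, and DNA replication genes -0.45 and -0.46.

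Sterol synthesis and uptake had the lowest median step of the lists. Of 19 tested members 11 fell and 0 rose (57.9% against 8.09%), with a median step of -0.59 and of -0.63, -0.69, -0.63 and -0.46 in Aska-SS, Yamato-SS, SYO-1 and Fuji. Between 0 and 0.3 µM 4 had fallen (21.1% against 3.35% of all genes), with a median of -0.41. *ACAT2*, which starts the pathway, went from 11.14 to 9.98, from 12.23 to 11.12, from 11.73 to 10.55 and from 10.92 to 10.19, a step of -1.04 (SE 0.17, adjusted p = 0.0034). Each line was lower at 3 µM, and the ranges overlap. *DHCR7*, its last enzyme, changed by -1.10 (SE 0.21, adjusted p = 0.00737, and 0.0639 without SYO-1), *HMGCS1*, the synthase before the rate-limiting reductase, by -1.14 (adjusted p = 0.00915, and 0.0509 without Aska-SS and 0.0537 without SYO-1), and *MSMO1* by -0.70 (adjusted p = 0.00654, and 0.0606 without SYO-1). The count fell to 1 when SYO-1 was left out and to 4 without Aska-SS. Of 10 tested genes of fatty acid synthesis 2 fell (20% against 8.09% of all genes), *SCD* (-0.79) and *ACLY* (-0.54). Neither passed without Aska-SS (0.105 and 0.0831), and *SCD* also failed without SYO-1 (0.154) and without Fuji (0.0839). Of 20 genes of glycolysis 6 fell and 1 rose (30% and 5%, against 8.09% and 7.25% of all genes). Those that fell included *ENO1* (-0.57, adjusted p = 0.00555) and *PGAM1* (-0.43, adjusted p = 0.00312).

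The list of ER stress genes and ER chaperones holds sensors of unfolded proteins in the endoplasmic reticulum and the proteins that fold them. Of 26 tested members 13 fell, 1 rose and 12 did not pass (50% and 3.85%, against 8.09% and 7.25% of all genes), with a median step of -0.32. Between 0 and 0.3 µM 2 had fallen (7.69% against 3.35% of all genes), with a median of -0.16. The difference between these intervals passed for 0 members. *CRELD2*, an ER protein induced by unfolded proteins, went from 11.14 to 10.07, from 11.91 to 10.89, from 11.83 to 10.19 and from 11.86 to 10.39, a step of -1.30 (SE 0.16, adjusted p = 0.00153) after -0.29 (adjusted p = 0.27). All arrays at 3 µM lay below all at 0.3 µM. *PDIA4*, a disulfide isomerase, changed by -0.75 (SE 0.13, adjusted p = 0.00448), *SEC61B*, of the translocon, by -0.51 (adjusted p = 0.00153) and *MANF* by -0.81 (adjusted p = 0.00849, and 0.0688 without SYO-1 and 0.051 without Yamato-SS). *HSPA5*, the chaperone BiP, changed by -0.71 and was named after its value was seen. *ERN1*, a sensor of unfolded proteins, rose by 0.45 (adjusted p = 0.0446), although another of its probe sets gave -0.04 and it passed in 1 of the 4 fits without a line. The number that fell was 3 without SYO-1 and 5 without Yamato-SS.

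In the list of ATF4 targets, the genes of the amino acid response, 2 of 27 rose and 5 fell (7.41% and 18.5%, against 7.25% and 8.09% of all genes). *ATF4* itself rose by 0.63 (SE 0.12, adjusted p = 0.0073, and 0.0661 without SYO-1) and *DDIT3*, the stress factor CHOP, by 0.82 (SE 0.15, adjusted p = 0.00536). *DDIT3* went from 9.07 to 9.44, from 9.12 to 10.16, from 9.24 to 10.39 and from 9.31 to 10.02, with all arrays at 3 µM above all at 0.3 µM, after -0.22 in the lower interval. *DDIT4*, an inhibitor of mTORC1, changed by -1.08 (SE 0.22, adjusted p = 0.00887). Of 17 tested cytosolic aminoacyl-tRNA synthetases 7 fell and 1 rose (41.2% and 5.88%, against 8.09% and 7.25% of all genes). *WARS1* was at -0.72 (adjusted p = 0.00713) and *GARS1* at -0.33 (adjusted p = 0.00818), both lost without Aska-SS (0.0527 and 0.0614). The count of synthetases that fell was 0 without Aska-SS and 3 without Yamato-SS. The member that rose, *SARS1* (0.25), turned to -0.07 with the mean of its probe sets.

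Of 30 tested proteasome subunits and activators 17 fell, 1 rose and 12 did not pass (56.7% and 3.33%, against 8.09% and 7.25% of all genes). The median step was -0.30 and lay between -0.26 and -0.33 in the lines. At 0.3 µM 13 had fallen (43.3% against 3.35% of all genes). *PSMD1*, a large subunit of the regulatory particle, went from 11.21 to 10.30, from 11.77 to 10.88, from 12.03 to 11.22 and from 11.87 to 11.10. The ranges touch, since SYO-1 at 3 µM was as high as Aska-SS at 0.3 µM, and the step was -0.84 (SE 0.08, adjusted p = 0.000908). *PSMD14*, the deubiquitinase of that particle, changed by -0.70 (SE 0.07, adjusted p = 0.000908), *PSMD2* by -0.66 (adjusted p = 0.00153) and *PSMB3* by -0.61 (adjusted p = 0.00183). *PSMD4*, a ubiquitin receptor, rose by 0.28 (adjusted p = 0.0138, and 0.0822 without Aska-SS and 0.0705 without SYO-1). The count that fell was 10 both without Aska-SS and without SYO-1.

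Of 27 tested genes of mitochondrial import, chaperones and dynamics 13 fell, 2 rose and 12 did not pass (48.1% fell against 8.09% of all genes), with a median step of -0.24. *TIMM17A*, of the inner membrane translocase, changed by -0.56 (SE 0.06, adjusted p = 0.000908), *TOMM5*, of the outer membrane translocase, by -0.55 (SE 0.07, adjusted p = 0.00166) and its pore *TOMM40* by -0.77 (adjusted p = 0.00324), while *TIMM9* rose by 0.61 (adjusted p = 0.00396) and *TOMM70* by 0.27 (adjusted p = 0.0356, passing in 0 of the 4 fits without a line). Of 52 nuclear-encoded genes of oxidative phosphorylation 18 fell, 0 rose and 34 did not pass (34.6% fell), with a median of -0.16, led by *UQCRQ* (-0.50, SE 0.06, adjusted p = 0.00147) and *NDUFS6* (-0.76, adjusted p = 0.00238). *COX6C* changed by -0.25 to -0.27 in every line (step -0.26, adjusted p = 0.00537). Of 61 mitochondrial ribosomal proteins 17 fell, 3 rose and 41 did not pass (27.9% and 4.92%), and *MRPL10* rose by 0.78 (SE 0.12, adjusted p = 0.00277). Without SYO-1 the falls in these lists numbered 6, 4 and 6, and without Aska-SS 8, 9 and 4.

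Cytosolic ribosomal proteins had a small median step in each line, at 0.017, 0.030, 0.018 and 0.003. Of 49 tested 1 rose and 0 fell (2.04% and 0%, against 7.25% and 8.09% of all genes), with a median step of 0.03. No fitted step of a member went beyond -0.07 or 0.18, although single lines did, such as *RPL36* at 0.23 in Yamato-SS. These are bright probe sets, with a median level of 15.04 at 3 µM. The member that rose was *RPL36* (0.18, adjusted p = 0.0326), which passed in 0 of the 4 fits without a line. Of 47 genes of ribosome biogenesis and RNA polymerase I 7 fell and 2 rose (15% and 4.26%, against 8.09% and 7.25% of all genes). *PNO1* was at -0.79 (adjusted p = 0.00324) and *LYAR* at -0.67 (adjusted p = 0.00398). *POLR1D*, a subunit shared by polymerases, rose by 0.69 (SE 0.09, adjusted p = 0.00153). Of 34 translation initiation factors 7 rose and 7 fell (20.6% each, against 7.25% and 8.09% of all genes), *EIF1* (0.30), *EIF3A* (0.41) and *EIF4B* (0.43) among the former.

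Of 27 splicing regulators of the SRSF and HNRNP families 12 fell and 2 rose (44.4% and 7.41%, against 8.09% and 7.25% of all genes). At 0.3 µM 1 had fallen and 1 had risen (3.7% each, against 3.35% and 4.57% of all genes). *TRA2B* changed by -0.69 (SE 0.12, adjusted p = 0.00534) and *SRSF1* by -0.43 (adjusted p = 0.00387), but probe sets of *SRSF1* ranged from -0.89 to 0.40 and their mean did not pass (-0.35, adjusted p = 0.0544). *HNRNPA2B1* (-0.47, adjusted p = 0.00361) turned to 0.02 with the mean of its probe sets, and *HNRNPA1*, which rose by 0.53, has many near-identical copies in the genome, so both are uncertain. The count that fell was 7 without Aska-SS.

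Of 30 tested autophagy genes 7 rose and 0 fell (23.3% against 7.25%), with a median step of 0.12. *RB1CC1*, a subunit of the ULK kinase complex, went from 12.20 to 12.67, from 11.86 to 12.45, from 11.78 to 12.35 and from 11.69 to 12.41, with no overlap between the doses and a step of 0.59 (SE 0.08, adjusted p = 0.00178), and *ATG14*, of the autophagy-specific PI3K class III complex, rose by 0.59 (adjusted p = 0.00536). Of 36 lysosomal enzymes and V-ATPase subunits 8 rose and 2 fell (22.2% and 5.56%), with a median of 0.11. *NPC2*, a carrier of cholesterol, rose by 0.47 (SE 0.07, adjusted p = 0.0033) and the sialidase *NEU1* by 0.61 (adjusted p = 0.00667), after -0.11 at 0.3 µM. The counts that rose were 3 in both lists without SYO-1, and 3 and 4 without Aska-SS.

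Some lists changed at 0.3 µM and gave few calls in the step. Of 29 collagens and matrix genes 9 had risen at 0.3 µM (31% against 4.57% of all genes, and at most 1 without Aska-SS), with a median of 0.30, and 1 rose in the step, with a median of 0.02, *LAMB1* (0.54, adjusted p = 0.00861). Of 14 SS markers 3 had risen at 0.3 µM (21.4% against 4.57% of all genes) and 0 passed in the step (median -0.01). *PDGFRA*, a receptor tyrosine kinase, had risen by 0.95 (adjusted p = 0.00585) and was at 0.27 in the step (adjusted p = 0.127). Of 26 genes of the Wnt pathway 4 had risen at 0.3 µM (15.4% against 4.57% of all genes) and 0 passed in the step. *CLIP3*, which changed most at 0.3 µM (2.14, adjusted p = 0.0104), was at 0.49 in the step (adjusted p = 0.386), *GTF2IP20* at 0.32 after 2.07 and *CPLANE1* at 0.45 after 1.63. *CLIP3*, *GTF2IP20* and *CPLANE1* were picked as large changes at 0.3 µM. The step subtracts the same 0.3 µM arrays, so a smaller step can follow from the picking alone. A p above the threshold in the step does not show that these genes stayed the same.

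Smaller lists held a few strong members. *MXI1*, which antagonises MYC, went from 11.67 to 12.51, from 9.81 to 11.01, from 10.61 to 11.61 and from 11.86 to 12.71 (step 0.97, SE 0.11, adjusted p = 0.000992). Each line was higher at 3 µM, and the ranges overlap. It belongs to the lists of the MYC network, where 2 of 11 rose (18.2% against 7.25% of all genes), and of the hypoxia response. In the latter 4 of 18 rose and 1 fell (22.2% and 5.56%, against 7.25% and 8.09% of all genes). *NDRG1* rose by 0.84 (SE 0.14, adjusted p = 0.00388). *RANBP1*, of nuclear transport, changed by -0.99 (SE 0.11, adjusted p = 0.000992), 1 of 3 that fell among 32 nuclear pore and transport genes (9.38% against 8.09% of all genes). *HLA-E* rose by 0.71 (SE 0.11, adjusted p = 0.0034) and *HLA-F* by 0.36 (adjusted p = 0.0391, passing in 1 of the 4 fits without a line) among 14 genes of MHC class I presentation (14.3% rose, against 7.25% of all genes). Of 25 subunits of the SS18 and BAF complexes 2 rose and 3 fell (8% and 12%, against 7.25% and 8.09% of all genes). *SMARCA4*, the ATPase of the complex that SS18-SSX joins, changed by -0.37 (SE 0.07, adjusted p = 0.0073). Against shares of all genes of 7.25% that rose and 8.09% that fell, 15% of 20 ERK feedback genes rose and 5% fell. Of these *SPRED1* (0.43) passed in all 4 fits without a line, and *SPRY1*, *SPRED2* and *ETV5* in 1 each. The 3 probe sets of *SPRED1* ranged from 0.08 to 0.43, and their mean did not pass (0.30, adjusted p = 0.0629 by limma). Of 17 interferon-stimulated genes 11.8% rose, and of 23 nucleotide synthesis genes 8.7% rose and 21.7% fell. Of 7 CCT chaperonin subunits 1 rose, *CCT4*, and 1 fell, *CCT5* (14.3% each way). They passed in 0 and 1 of the 4 fits without a line, in this order.

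**Figure D4:**
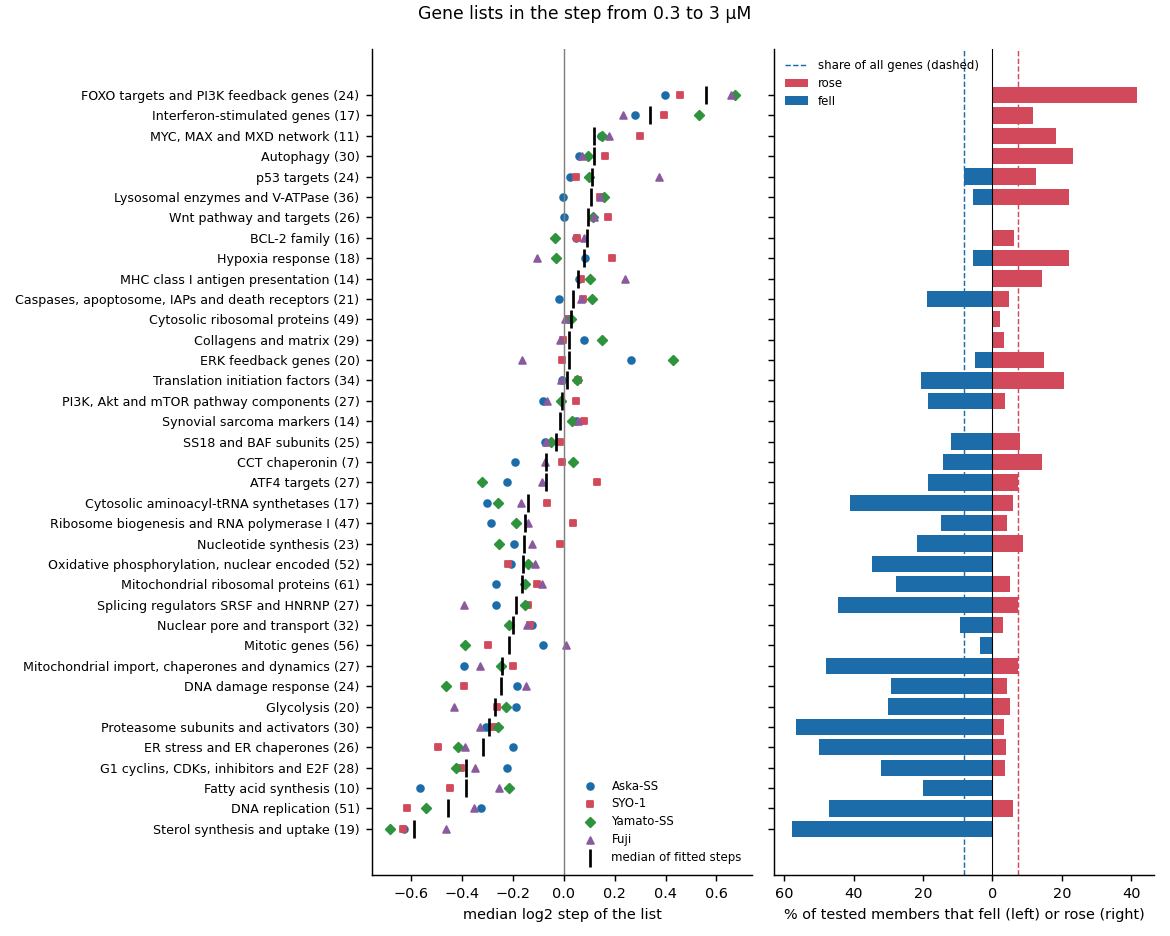
Left, median log2 step of each gene list with 7 or more tested members (number in brackets), for each cell line (symbols) and over the fitted steps (tick). Right, percent of tested members that fell (left of 0) or rose (right of 0), with dashed lines at 8.09% and 7.25%, the shares of all genes; the share of the sterol list that fell was 57.9% and that of the FOXO list that rose 41.7%.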

How the data were processed

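The deposited values are linear signal intensities of Affymetrix Human Genome U133 Plus 2.0 arrays that the authors made with MAS5 (version not given in the sources used here). All 12 arrays, 54675 probe sets each, were quantile-normalized, as the study's methods state for their data, floored at the 20th percentile and put on a log2 scale. The 62 control probe sets were then removed. Probe sets with a mean above the median (6.03) were kept, and the brightest with 1 gene symbol (41097 have 1, 1801 several, 11777 none here) stood for a gene, with *BBC3* kept although its probe set also names microRNA genes. Tests used limma 3.58.1 in R 4.3.3 on all 12 arrays, with cell line as block, dose as factor and variances that follow the mean. Replicate numbers are the cell lines. Deviations from the mean of each dose correlated with r = 0.828 to 0.931 between arrays of a line. Between arrays that differ in both line and dose r was -0.43 to -0.0892. Taking out the dose mean itself makes correlations between lines negative, so the sign of that range says nothing of the pairing. Precision is limited by the number of arrays.

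The members and the 40 gene lists were chosen with earlier results of these data known. Named genes are the 15 largest rises and falls that passed with 4 of 4 lines alike, the study's genes, the 4 list members with the smallest adjusted p, members that passed against their list, and the 6 largest changes at 0.3 µM. In simulated data with 200 of 12133 genes changed in the step, 44% were recovered at a log2 size of 0.5 and 90% at 1. At 1.5 and 2 it was 94% and 96%, and 2.99% of calls were unchanged genes. The simulated noise was normal with the variances of the fit, and each change was the same in every line. Fewer genes changed there than passed here, and the real lines differ. The simulated rates are therefore not the power or error rate of the real data. Alternatives left out the quantile normalization or added 16 to the signals before log2, and used other floors and filters, the mean of probe sets, no block, the 8 arrays alone, other variance models, array weights, the methods' t-test (unpaired) and leaving out each line. Items withheld here are not reported.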

Additional observations from a re-analysis of the deposited data

Results flagged for a closer look

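Of 256 sets of 4 line values examined for a line far from the others, 16 were flagged, where chance flags about 1 in 20. Fuji stood apart 8 times. It was higher for *SELENOP* (4.57, others 1.18 to 1.42), *CREBRF* (1.77, others 1.03 to 1.12) and *BAX* (0.40, others -0.29 to -0.19), and lower for *MCM10* (-2.78, others -1.59 to -1.39), *BBC3* (-0.22, others 0.59 to 0.68), *NOLC1* (-0.73, others -0.35 to -0.34) and *CYCS* (-1.65, others -0.85 to -0.71). *ACAT2* fell least in Fuji (-0.73, others -1.17 to -1.11). Fuji also had the largest change of the actin 3' to 5' ratio (0.365), and its part in these values was not tested.

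Yamato-SS stood apart for *CIMAP3* (2.80, others 0.73 to 0.998), *CCNG1* (0.99, others 0.38 to 0.44), *ATP6V0D1* (-0.22, others -0.53 to -0.48) and *TFDP1* (-0.42, others -0.57 to -0.55). Aska-SS stood apart for *N4BP2L1* (2.25, others 2.04 to 2.05), *DVL2* (-0.02531, others 0.32 to 0.36), *HNRNPA1* (0.33, others 0.57 to 0.62) and the median of the lysosomal list (-0.001348, others 0.14 to 0.16).

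In 3 cases the lines of one fusion type moved one way and those of the other the opposite way. *BCL2* was lower in Aska-SS (-0.16) and Yamato-SS (-0.70) and higher in SYO-1 (0.26) and Fuji (0.21), a difference of 0.67. The median of the ERK feedback genes was 0.26 and 0.43 in Aska-SS and Yamato-SS and -0.01 and -0.16 in SYO-1 and Fuji, a difference of -0.43. The median of the collagens and matrix genes differed by -0.12. The differences of the medians were not tested, and no gene passed the test of the fusion types.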

How the results depend on the processing

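Without the replicate block for cell line the step gave 0 rises and 0 falls, as did the change to 0.3 µM, and the methods' t-test, which also leaves out the pairing, gave 0 and 0 in each (508 and 374 genes at an unadjusted p under 0.05). These fits set the doses against the spread between lines. With no filter on dim probe sets 506 rose and 557 fell in the step, with variances without a trend 521 and 593, and with no moderation of variances 410 and 420. Leaving out 1 line gave 246 to 662 rises and 347 to 790 falls. For the change to 0.3 µM the counts were 58 and 41 with no filter, 98 and 45 without a trend, 21 and 17 without moderation, 1061 and 956 with array weights, 325 rises with the mean of probe sets, and 1 to 213 rises and 0 to 141 falls without a line, the lowest without Aska-SS. The other alternatives kept the counts of the step within 1.5 times, and the median step of all genes was 0.0109 with quantile normalization and 0.037 without it. The step minus the change at 0.3 µM gave 1 gene with array weights and 0 otherwise, and the difference between fusion types gave 0 in all that were run.

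With the mean of probe sets *SARS1* turned to -0.06554 and *HNRNPA2B1* to 0.01676, and 21 of 165 calls of named genes were lost. Without a line the median of the p53 targets was -0.005665 (without Fuji) to 0.1679, and that of the SS18 and BAF subunits -0.06526 to 0.01956 (without Yamato-SS), against 0.004591 with a filter at the 65th percentile. The causes were not tested. Of the named genes that passed, 61 kept direction and side in every alternative with the block. Genes near background have only limits.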
